A study of Rattus norvegicus with 18 samples.

Results

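The comparison set the nucleus accumbens of 6 shock-resistant rats against that of 6 shock-sensitive rats, 12 of the 18 arrays of the series. The arrays were chosen by their titles, and each of the 22093 genes with a single gene symbol on the array was compared. The rats were male Sprague-Dawley rats with no labelled genotype or allele, 1 array was run per rat, and the rats of every group were picked for good RNA. Shock-resistant and shock-sensitive rats both belong to a study of methamphetamine self-administration punished with footshock; by the usual meaning of these names, resistant animals go on taking the drug under punishment and sensitive animals cut their intake. The other 6 rats are labelled controls. The sources used here do not state their treatment, and their values are given below for orientation, without a test.

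The nucleus accumbens is the ventral striatum, a relay between reward, motivation and action. Most of its neurons are medium spiny neurons, inhibitory projection cells that carry dopamine D1 or D2 receptors. Cells of the D1 class typically make dynorphin, encoded by Pdyn, and substance P, encoded by Tac1, while cells of the D2 class make enkephalin, encoded by Penk. Dopamine acts in these cells largely through cyclic AMP and protein kinase A, which alter transcription, channels and synapses.

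Values are log2 array signals as deposited, and differences are log2 ratios of signal, resistant minus sensitive throughout. Levels of different genes come from different probes and are not set against each other. The 12 array medians lay within 5.43 and 5.56, and any pair of them had a correlation across features between 0.993 and 0.997; features are no independent replicates. The median over negative control features was 6.37, and 47.6% of the genes had a mean below it; a gene there may not have been measured above background. Levels of 17 medium spiny neuron markers, among them Drd1, Drd2, Adora2a, Adcy5 and Tac1, were high in the tissue, with list means of 13.10 ± 0.28 in resistant rats, 12.48 ± 0.63 in sensitive rats and 12.74 ± 0.64 in controls (SD, n = 6 each).

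Of the 18 arrays, 3 stood apart in these tissue markers. Shock-sensitive replicate 4 had a medium spiny neuron marker mean of 11.40 and control replicate 1 had 11.49, while every other array was between 12.28 and 13.59. The same arrays had the highest means of 18 hypothalamic and septal neuron markers, 7.93 and 7.75. Shock-resistant replicate 4 had a mean of 8.15 over 13 choroid plexus and ependymal markers, against 5.33 to 5.49 in the other resistant rats and 5.30 to 5.76 in sensitive rats. In bulk tissue, fewer cells of a type and less RNA per cell cannot be told apart. Leading results are therefore given beside the same fit with the mean of those 17 markers as a covariate, which draws the markers themselves toward 0, and the leading counts without those 3 arrays.

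**Figure D1:**
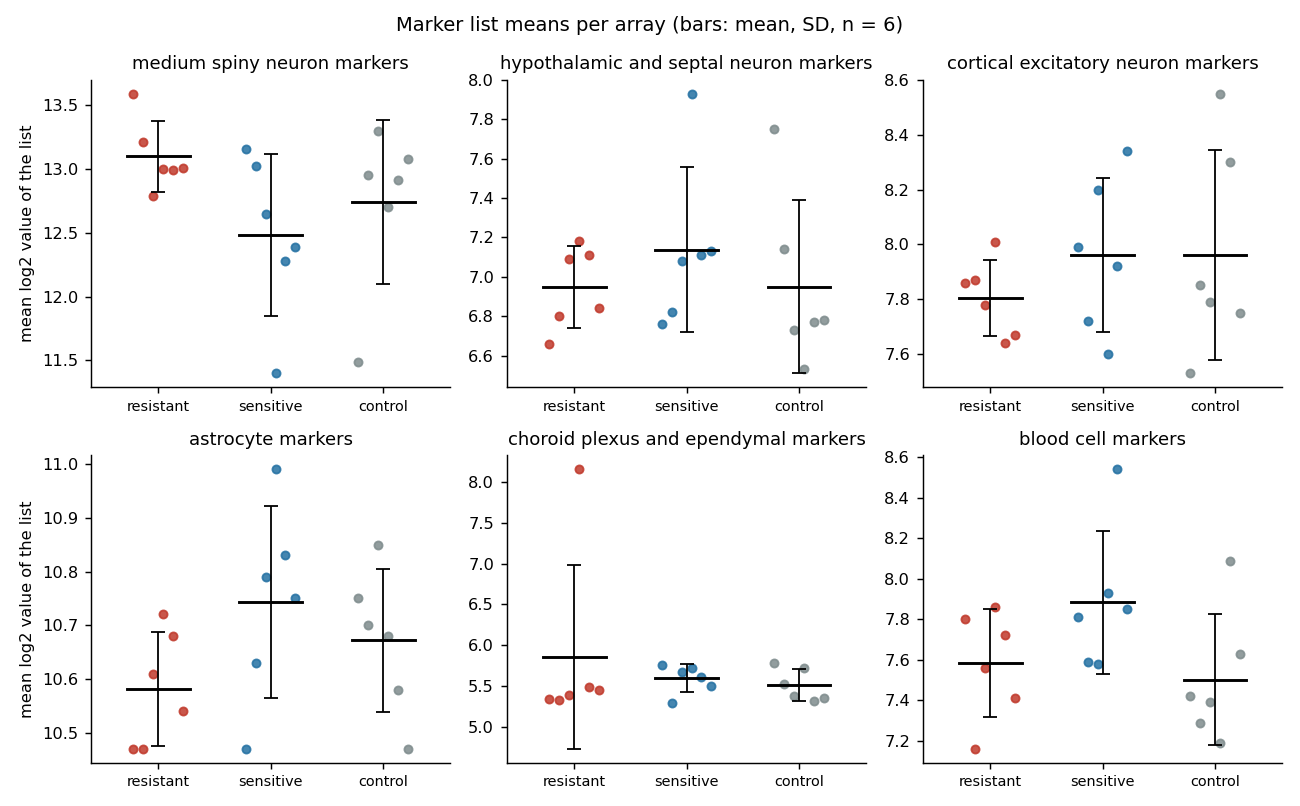
Mean log2 value of 6 cell type marker lists on each array, for resistant, sensitive and control rats; 1 point is 1 rat, the long line is the group mean and the bar is 1 SD. The medium spiny neuron panel shows the low sensitive array at 11.40 and control array at 11.49, and the choroid plexus panel shows the resistant array at 8.15.

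No gene passed the threshold of an adjusted limma p of 0.05 between resistant and sensitive rats (0 of 22093, 0.0%). At an unadjusted p under 0.05, 582 genes were higher in resistant rats (2.63%) and 833 were lower (3.77%), 6.4% in all. Adding at least a 1.3-fold difference left 117 higher genes (0.53%) and 131 lower genes (0.593%). Without the 3 arrays that stood apart those counts were 74 and 116, and with the marker covariate they were 24 (0.109%) and 31 (0.14%). Positive differences made up 48.4% of all genes and negative ones 51.6%. Among the 11573 genes at or above the negative control median the shares were 41.5% and 58.5%, with 3.15% higher and 5.94% lower at p under 0.05 before adjustment (9.1% in all) and 0.976% and 1.05% with at least 1.3-fold. With the marker covariate 2.04% of all genes were higher and 1.86% lower at p under 0.05 before adjustment (3.9% in all). In 29 genes (0.131%) all 6 resistant rats lay above all 6 sensitive rats, and in 18 genes (0.0815%) all lay below. The genes named below are therefore descriptions of where the groups stood, ranked by p in this same comparison, and none is a called change.

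**Figure D2:**
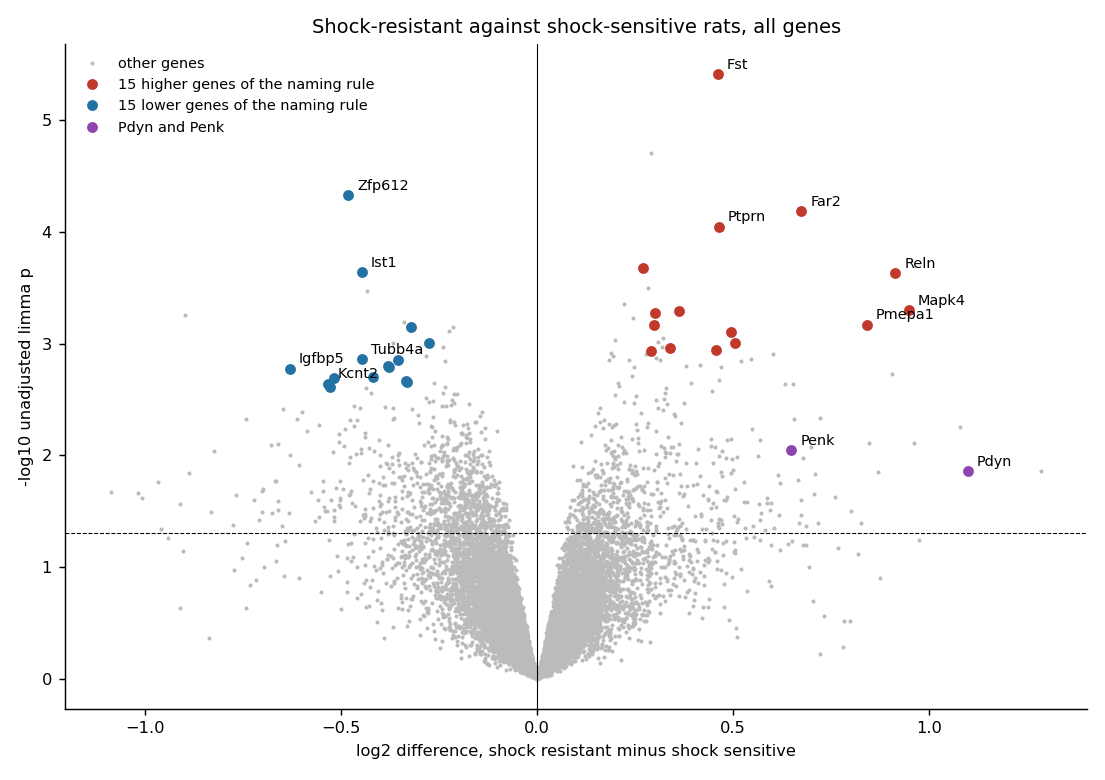
Log2 difference between resistant and sensitive rats (x axis) against -log10 of the unadjusted limma p (y axis) for 22093 genes; the dashed line marks the unadjusted threshold, and colours mark the 15 higher and 15 lower genes named by rule and the opioid peptide genes Pdyn and Penk. Fst stands highest on the plot, and Pdyn lies far to the right but lower on the plot.

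Fst was the gene with the smallest p. It encodes follistatin, a secreted protein that binds activins and keeps them from their receptors. Its level was 6.68, 6.93 and 7.16 in resistant rats and 6.31, 6.47 and 6.50 in sensitive rats (lowest, median and highest). Every resistant rat stood above every sensitive rat, and controls, at 6.49, 6.60 and 6.72, overlapped both groups at their edges. The difference was 0.46 ± 0.07 (SE), a 1.38-fold higher level, with a limma p of 3.9e-06 and an adjusted p of 0.0852. With the medium spiny neuron marker covariate the Fst difference was 0.42, but its adjusted limma p was 0.634. Without the 3 arrays that stood apart the difference was 0.51, with an adjusted limma p of 0.0997. The level of Fst lies close to the negative control median, which limits what the array can resolve for it.

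Of the 15 higher genes 3, Pmepa1, Skil and Ldlrad4, are known as restraints on transforming growth factor beta (TGF-beta) signalling. They were grouped after the ranking by p was seen, and the share of such restraints among all genes was not counted. TGF-beta and activin receptors phosphorylate SMAD proteins, which enter the nucleus and switch on target genes, including genes that damp the pathway. Pmepa1, a membrane protein that holds SMAD proteins away from the receptor, had 10.45, 10.90 and 11.36 in resistant rats and 9.80, 10.05 and 10.30 in sensitive rats (lowest, median and highest). The 6 resistant rats all lay above the 6 sensitive rats, and the difference was 0.84 ± 0.20 (SE), 1.79-fold, with an adjusted p of 0.664. Skil encodes SnoN, a nuclear repressor of SMAD-driven transcription. Its levels were 11.22, 11.35 and 11.64 in resistant rats and 10.55, 10.92 and 11.12 in sensitive rats, again without overlap, a difference of 0.49 ± 0.12 (SE). Ldlrad4, a membrane relative of Pmepa1 that also restrains SMAD activation, had 8.48, 8.74 and 8.88 in resistant rats and 7.89, 8.26 and 8.35 in sensitive rats. The difference in Ldlrad4 was 0.50 ± 0.13 (SE), and the groups did not overlap. Under the marker covariate the differences of Pmepa1, Skil and Ldlrad4 were 0.50, 0.28 and 0.32.

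The wider pathway was mostly near 0. Of 17 measured genes of TGF-beta and activin signalling, 13 had positive and 4 negative differences, with a median of 0.03 beside -0.003 over all genes; this list holds Fst but not Pmepa1, Skil or Ldlrad4. At an unadjusted p under 0.05, 3 of the 17 were higher and 1 was lower, beside 2.63% and 3.77% of all genes. Smad7, an inhibitory SMAD induced by the pathway, had medians of 6.71 in resistant and 6.52 in sensitive rats and a difference of 0.19. Smad4, the partner shared by all activating SMADs, differed by 0.12, with medians of 11.91 in resistant and 11.73 in sensitive rats. The ligand Tgfb2 stood the other way, with medians of 7.22 in resistant and 7.61 in sensitive rats and a difference of -0.37.

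Promoters of Pmepa1 and Skil are shown because both hold a full cyclic AMP response element, the palindrome TGACGTCA to which CREB binds, within the 250 bases before and 50 bases after the start of transcription. The sequences are from RefSeq on the build GRCr8, 5′ to 3′ on the gene's strand, with the element in capitals; the Pmepa1 promoter is chr3:182478600-182478899 and the Skil promoter is chr2:114203523-114203822, both on the minus strand.
Pmepa1: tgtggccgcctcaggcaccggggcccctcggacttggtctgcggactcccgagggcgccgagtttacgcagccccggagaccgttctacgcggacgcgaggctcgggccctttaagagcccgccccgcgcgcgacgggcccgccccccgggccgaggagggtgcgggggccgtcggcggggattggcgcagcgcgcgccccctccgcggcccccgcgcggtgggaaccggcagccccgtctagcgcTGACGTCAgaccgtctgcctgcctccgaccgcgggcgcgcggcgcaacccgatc
Skil: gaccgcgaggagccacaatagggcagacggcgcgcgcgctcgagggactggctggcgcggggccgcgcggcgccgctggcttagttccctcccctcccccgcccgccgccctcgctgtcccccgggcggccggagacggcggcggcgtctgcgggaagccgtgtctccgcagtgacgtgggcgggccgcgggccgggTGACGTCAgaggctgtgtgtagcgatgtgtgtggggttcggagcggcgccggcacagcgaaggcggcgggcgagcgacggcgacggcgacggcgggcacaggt
The element begins 4 bases before the start in Pmepa1 and 53 bases before it in Skil. Of the 15 higher genes 13 had a promoter in the table, and 3 of the 13 held the element, Ell2 beside the 2 shown, or 23.1%. It stood in 525 of 27457 promoters of the table (1.91%) and in 0 of the 12 matched promoters of the 15 lower genes. The 27457 promoters were not limited to measured genes or by level, as the 15 genes were, so these shares come from unlike sets. A match is a description of the sequence and says nothing about binding in these rats.

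The opioid peptide genes carried the largest differences of the measured opioid list. Pdyn had 11.90, 13.24 and 14.02 in resistant rats, 11.33, 11.96 and 12.72 in sensitive rats and 10.88, 11.90 and 13.50 in controls (lowest, median and highest). Of the 6 resistant rats 4 lay above every sensitive rat, but the ranges overlapped, and the difference of 1.10 ± 0.40 (SE), 2.14-fold, had an adjusted p of 0.753. Under the marker covariate the Pdyn difference was 0.55, and without the 3 arrays it was 0.88. Penk had 15.16, 15.57 and 16.14 in resistant rats and 14.48, 14.79 and 15.43 in sensitive rats. All 6 resistant rats were above the sensitive median, 3 of them above every sensitive rat, with a difference of 0.65 ± 0.22 (SE) that was 0.27 under the covariate.

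The receptors of these peptides differed less. Oprk1, the kappa receptor for dynorphin, had a difference of 0.26 ± 0.21 (SE), with medians of 9.71 in resistant and 9.36 in sensitive rats. Oprd1, the delta receptor for enkephalin, differed by 0.14, and Oprm1, the mu receptor that morphine also binds, by -0.09. For Oprl1, the nociceptin receptor, the difference was -0.34, and for its peptide gene Pnoc it was -0.15. Pomc, the precursor of beta-endorphin, stayed below the negative control median in all groups. Of the 8 opioid genes 2 were higher and 0 lower at p under 0.05 before adjustment, beside 2.63% and 3.77% of all genes. With the covariate 0 of the 8 were past that threshold.

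All 17 measured medium spiny neuron markers had positive differences, with a median of 0.65 beside -0.003 over all genes, and 6 of them were higher at an unadjusted p under 0.05, beside 2.63% of all genes. Ptpn5, the striatal-enriched phosphatase STEP, had 13.22, 13.62 and 13.99 in resistant rats and 12.40, 12.99 and 13.42 in sensitive rats. Tac1 had 12.86, 13.10 and 13.56 in resistant rats and 11.19, 12.28 and 13.01 in sensitive rats. The ranges of both genes overlapped, and their differences were 0.65 and 0.87. Drd1 and Drd2 stood alike, at 0.64 and 0.69, and the separate lists of direct-pathway and indirect-pathway markers had medians of 0.14 over 8 genes and 0.20 over 9. Without shock-sensitive replicate 4 the list median was 0.39, with 2 of the 17 genes past the unadjusted threshold, and the direct-pathway and indirect-pathway medians were 0.05 and 0.09. Without the 3 arrays that stood apart the list median was 0.43, with 8 of the 17 past that threshold.

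Genes of striatal cyclic AMP signalling, 22 of them, had a median difference of 0.41, with 20 positive; several also stand in the marker list. Of these, 5 were higher and 1 lower at p under 0.05 before adjustment, beside 2.63% and 3.77% of all genes. Without shock-sensitive replicate 4 the median was 0.23 and 1 gene was higher. Adcy5, the main adenylyl cyclase of striatal neurons, had medians of 14.77 in resistant and 14.25 in sensitive rats and a difference of 0.76. Arpp19, a phosphoprotein that inhibits protein phosphatase, differed by 0.48. Prkaca, the catalytic subunit of protein kinase A, stood the other way at -0.36, with 12.11, 12.64 and 12.93 in resistant rats and 12.68, 12.92 and 13.40 in sensitive rats. With the marker mean as a covariate the list median was -0.03, but 8 of the 22 genes are themselves in that mean, which draws them toward 0. Prkaca, which is not in it, was at -0.20.

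Peptide release genes were split. Ptprn encodes IA-2, a membrane protein of dense-core vesicles, the organelles that store neuropeptides. It had 13.37, 13.66 and 13.86 in resistant rats and 12.99, 13.19 and 13.30 in sensitive rats, so that every resistant rat stood above every sensitive rat. The difference was 0.46 ± 0.09 (SE), 1.38-fold, with a limma p of 9e-05 and an adjusted p of 0.396, and it was 0.32 under the covariate. Controls, at 12.88, 13.25 and 13.40, overlapped both groups. Pam, which amidates peptides, differed by 0.25. Cadps and Cadps2, the CAPS proteins that prime dense-core vesicles for release, were lower in resistant rats, at -0.31 and -0.67. Over the 16 measured genes of peptide processing and dense-core vesicles, 8 differences were positive and 8 negative, with a median of -0.007. At p under 0.05 before adjustment 2 were higher and 2 lower, beside 2.63% and 3.77% of all genes. With the covariate 1 was higher and 0 were lower, and without shock-sensitive replicate 4 these counts were 1 and 1.

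Reln showed one of the widest gaps between the groups. It encodes reelin, a secreted protein that guides neuronal migration in development and acts on glutamate receptors in adult brain. Its levels were 9.52, 9.80 and 10.62 in resistant rats, 8.61, 9.05 and 9.28 in sensitive rats and 8.47, 8.98 and 9.75 in controls. No sensitive rat reached the lowest resistant rat, and the difference was 0.91 ± 0.20 (SE), 1.88-fold, with an adjusted p of 0.647. It changed little with the marker covariate, at 0.79, or without the 3 arrays, at 0.91.

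The reelin receptors and their kinase stood opposite to Reln in sign. Vldlr and Lrp8 encode the reelin receptors, and their differences were -0.12 and -0.16, with medians of 10.34 and 9.87 in resistant rats against 10.44 and 10.10 in sensitive rats. Fyn, a kinase that acts below these receptors, differed by -0.07, with 10.23, 10.28 and 10.32 in resistant rats and 10.31, 10.33 and 10.44 in sensitive rats. Of the 10 genes of this list, 8 had negative differences, beside 58.5% of the genes at or above the negative control median. At p under 0.05 before adjustment 1 was higher and 3 were lower, beside 2.63% and 3.77% of all genes. Without shock-sensitive replicate 4, 1 was higher and 0 were lower. With the covariate 1 was higher and 0 were lower, with Vldlr, Lrp8 and Fyn at -0.09, -0.08 and -0.07. The list median was -0.06 in each of these fits.

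Bmal1, the transcription factor that pairs with CLOCK to drive the circadian cycle, separated the groups. It had 9.86, 9.97 and 10.21 in resistant rats and 9.47, 9.67 and 9.79 in sensitive rats, against 9.20, 9.52 and 9.76 in controls. All 6 resistant rats lay above all 12 of the others. The difference from sensitive rats was 0.36 ± 0.09 (SE), 1.28-fold, with an adjusted p of 0.664 and 0.29 under the covariate. Npas2, which can stand in for CLOCK in forebrain, differed by 0.47, and Hlf, an output transcription factor of the clock, by 0.57; under the covariate they were 0.04 and 0.09. Rorb, a nuclear receptor that acts on Bmal1, was lower at -0.14. Of 19 clock genes, 3 were higher and 1 lower at p under 0.05 before adjustment, beside 2.63% and 3.77% of all genes. The list median was 0.05. The sources used here do not state the time of day at which tissue was taken.

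The Bmal1 promoter is shown because it holds AGGTCA, the core of the element through which ROR and REV-ERB receptors act on this gene, in capitals. It is chr1:176766078-176766377 on the plus strand of GRCr8, from RefSeq, and the match begins 15 bases before the start.
Bmal1: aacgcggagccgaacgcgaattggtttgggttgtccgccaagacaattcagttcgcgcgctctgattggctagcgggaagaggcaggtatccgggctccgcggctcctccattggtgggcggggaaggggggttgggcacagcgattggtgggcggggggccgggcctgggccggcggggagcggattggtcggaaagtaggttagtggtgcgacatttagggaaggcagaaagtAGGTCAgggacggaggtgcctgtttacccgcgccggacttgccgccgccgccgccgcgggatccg
AGGTCA, searched on both strands, is common: 4305 of 27457 promoters held it (15.68%), as did 3 of 13 matched promoters of the higher genes (Bmal1, Ldlrad4 and Mapk4) and 3 of 12 of the lower genes (Htr5a, Tubb4a and Zfp141).

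The other higher genes had varied roles. Mapk4, an atypical mitogen-activated protein kinase, had 10.12, 10.68 and 11.11 in resistant rats and 9.15, 9.88 and 10.07 in sensitive rats. The groups did not overlap, and the difference of 0.95 ± 0.22 (SE), 1.93-fold, was 0.54 under the covariate. Far2, which reduces fatty acyl-CoA to fatty alcohols, had 11.08, 11.56 and 11.93 in resistant rats and 10.54, 10.91 and 11.13 in sensitive rats. Of the 6 resistant rats 5 lay above every sensitive rat, and the difference of 0.67 ± 0.13 (SE), 0.56 under the covariate, had an adjusted p of 0.361. Zdhhc2, a palmitoyltransferase that acts on synaptic scaffold proteins, differed by 0.27, and Sik2, a kinase that holds CREB coactivators in the cytoplasm, by 0.30. Dusp18, a dual-specificity phosphatase, differed by 0.30 and Lamb1, a laminin chain of the extracellular matrix, by 0.34. Ell2, an elongation factor of RNA polymerase II, differed by 0.46 and Slc25a2, a mitochondrial ornithine carrier, by 0.29. Insyn1, a protein of inhibitory synapses, was added by its gap: it had 10.59, 10.74 and 10.82 in resistant rats and 10.05, 10.27 and 10.40 in sensitive rats, but 9.48 to 11.14 in controls.

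**Figure D3:**
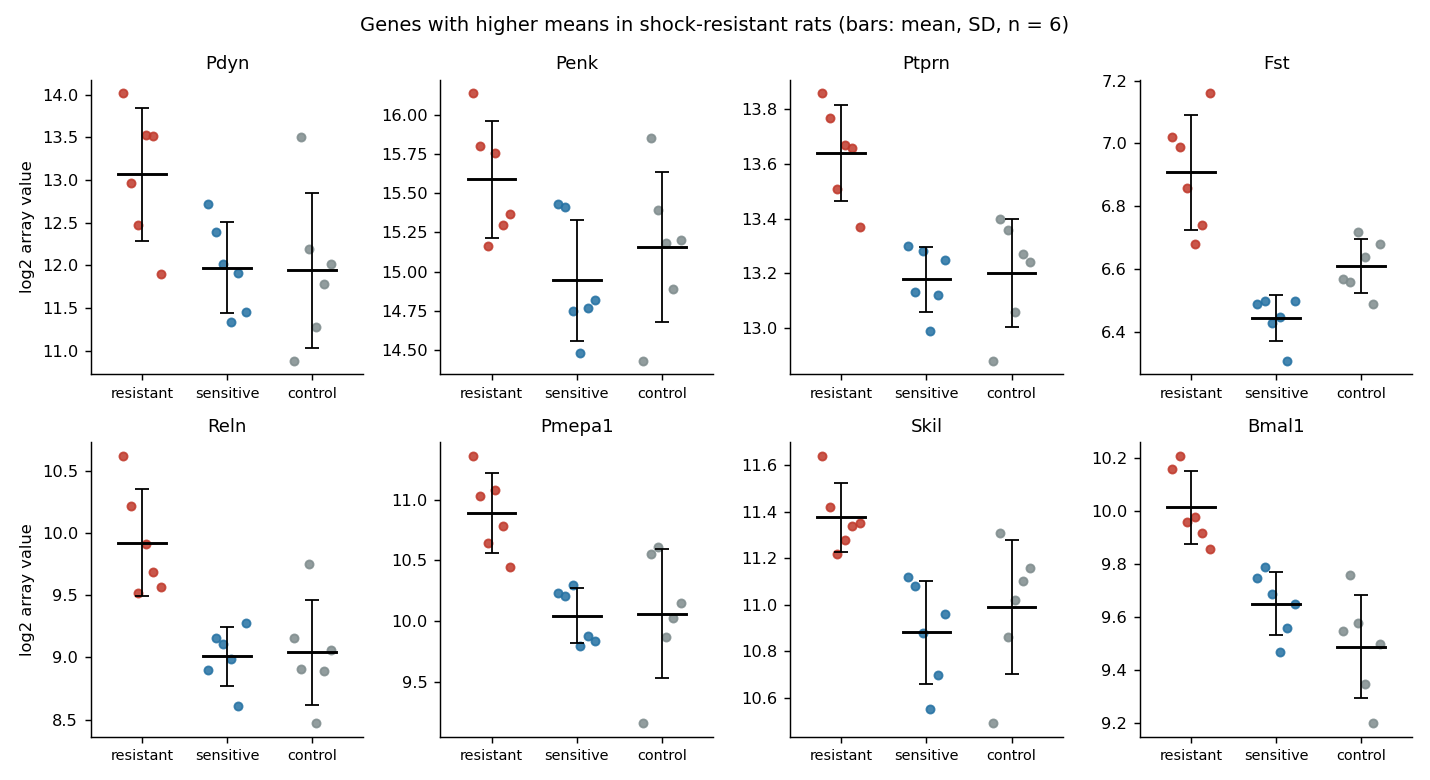
Log2 array value of 8 genes with higher means in resistant rats, for resistant, sensitive and control rats; 1 point is 1 rat, the long line is the group mean and the bar is 1 SD. Fst, Ptprn, Reln, Pmepa1, Skil and Bmal1 show no overlap between resistant and sensitive rats, while Pdyn and Penk do overlap.

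Zfp612 and Ist1 led the genes with lower levels in resistant rats. Zfp612 encodes a zinc finger protein and had 8.64, 8.94 and 9.14 in resistant rats and 9.24, 9.44 and 9.59 in sensitive rats, with no overlap. Its difference was -0.48 ± 0.09 (SE), with a limma p of 4.7e-05 and an adjusted p of 0.346. Ist1 encodes a subunit of the ESCRT machinery, which cuts membranes in endosomal sorting and cell division. Ist1 had 9.60, 9.65 and 9.80 in resistant rats and 9.96, 10.13 and 10.33 in sensitive rats, and its difference was -0.45 ± 0.10 (SE). Control means were 9.13 for Zfp612 and 9.69 for Ist1, nearer to those of resistant rats, 8.94 and 9.68, than to those of sensitive rats, 9.43 and 10.13. Both kept their size under the marker covariate, at -0.53 and -0.51.

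Igfbp5, which binds insulin-like growth factors, had 8.42, 8.64 and 9.31 in resistant rats, 9.04, 9.41 and 9.77 in sensitive rats and 8.39, 8.98 and 9.16 in controls. Of the 6 resistant rats 4 lay below every sensitive rat, and the difference was -0.63 ± 0.17 (SE), a 1.55-fold lower level, and -0.58 under the covariate. Htr5a, a serotonin receptor that couples to inhibition of cyclic AMP, had 7.74, 7.81 and 8.03 in resistant rats and 7.95, 8.13 and 8.30 in sensitive rats, a difference of -0.28. Kcnt2, a sodium-activated potassium channel, had 7.63, 8.02 and 8.36 in resistant rats and 8.31, 8.48 and 8.94 in sensitive rats, a difference of -0.53. For Htr5a and Kcnt2 the ranges overlapped, with 4 and 5 of the 6 resistant rats below every sensitive rat.

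The remaining lower genes covered cytoskeleton, signalling and stress. Tubb4a, a beta-tubulin abundant in brain, differed by -0.45, and Frmd4a, a scaffold of cell polarity, by -0.32. Sesn2, a sestrin that restrains the growth kinase mTORC1 under stress, differed by -0.42, and Smyd3, a lysine methyltransferase, by -0.33. Lhfpl3, which also stands in the list of oligodendrocyte precursor markers, differed by -0.52 and Ankrd55 by -0.53. Garnl3 had 8.77 to 8.84 in resistant rats, a far tighter range than 8.75 to 9.49 in sensitive rats, and a difference of -0.38. Nrip3, Ccdc50 and Zfp141 differed by -0.36, -0.38 and -0.34. By the gap rule Mthfd1l, a mitochondrial enzyme of folate metabolism, Acot3, an acyl-CoA thioesterase, and Lmln, a metallopeptidase, were added, each with all 6 resistant rats below all 6 sensitive rats at differences of -0.21, -0.18 and -0.10.

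**Figure D4:**
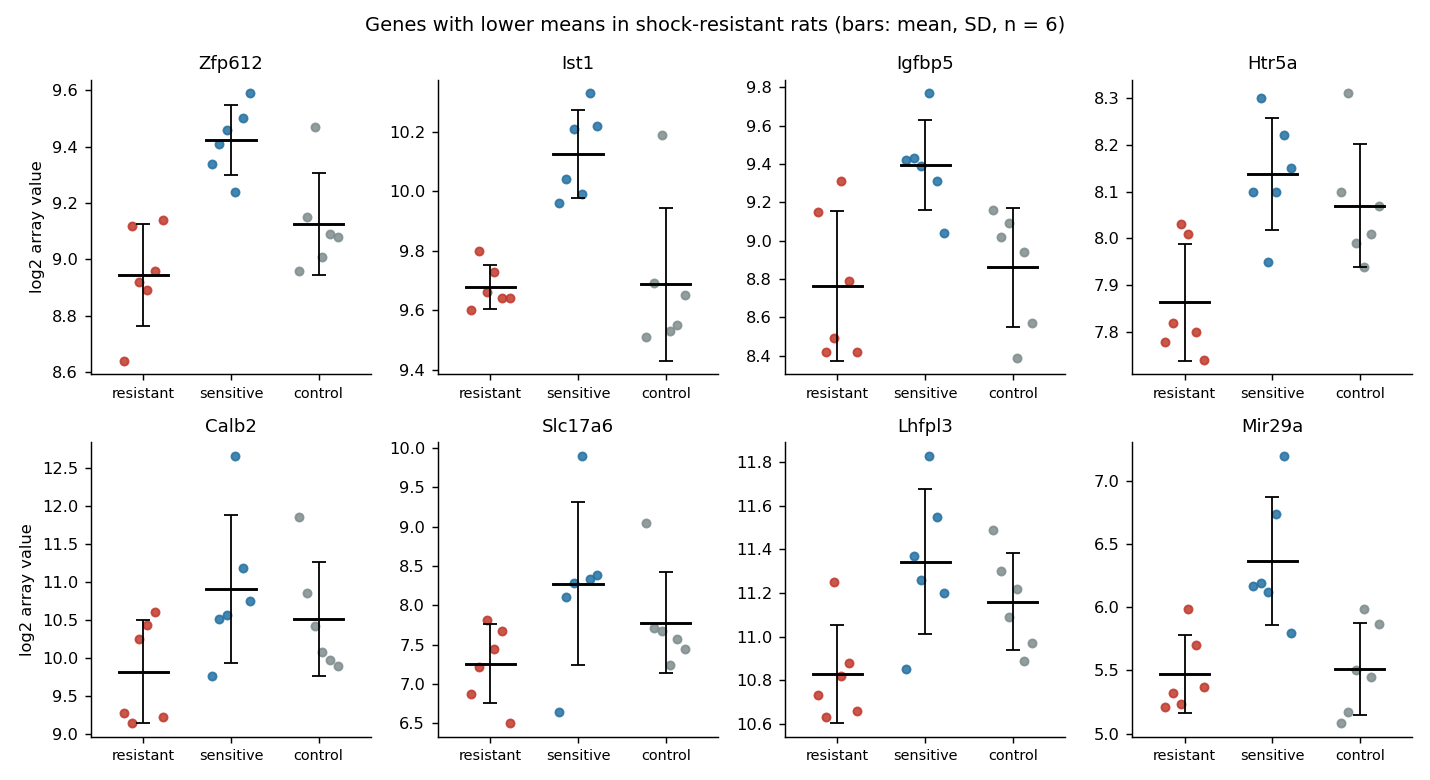
Log2 array value of 8 genes with lower means in resistant rats, for resistant, sensitive and control rats; 1 point is 1 rat, the long line is the group mean and the bar is 1 SD. Zfp612 and Ist1 show no overlap, and the sensitive points at 12.66 for Calb2 and 9.90 for Slc17a6 stand far above the rest.

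The largest differences in size belonged to genes with wide spread. Shock-sensitive replicate 4, which stood apart in the tissue markers, held the lowest sensitive value of Lrrc10b, Dach1, Scn4b and Car12. The same array held the highest sensitive value of Calb2, Slc17a6, Gpr165 and Gfra2, so the differences of these genes lean on it. Lrrc10b, a leucine-rich repeat protein, had 7.96, 8.56 and 9.40 in resistant rats and 6.15, 7.31 and 8.11 in sensitive rats, a difference of 1.29 that was 0.37 under the marker covariate. Dach1, a transcription factor, differed by 1.08, Scn4b, a sodium channel beta subunit of striatal neurons, by 0.97 and Car12, a carbonic anhydrase, by 0.96. Under the covariate they were 0.50, -0.005 and 0.35, a change of sign for Scn4b. Calb2, which encodes calretinin, had 9.14, 9.76 and 10.60 in resistant rats and 9.77, 10.65 and 12.66 in sensitive rats. Slc17a6 encodes the vesicular glutamate transporter of many subcortical neurons and had 6.50, 7.34 and 7.82 in resistant rats and 6.65, 8.31 and 9.90 in sensitive rats. Calb2 and Slc17a6 differed by -1.09 and -1.02, and by -0.33 and -0.31 under the covariate. Gpr165, Slc39a12 and Gfra2, the last a receptor for neurturin, differed by -1.01, -0.97 and -0.96, and by -0.40, -0.43 and -0.23 under the covariate.

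Of 12 measured GABA-A receptor subunits, the chloride channels of fast inhibition, 8 had negative and 4 positive differences, beside 58.5% and 41.5% of the genes at or above the negative control median. The list median was -0.25, or -0.16 without shock-sensitive replicate 4, and 3 were lower at p under 0.05 before adjustment, beside 3.77% of all genes. Gabra3 had 11.33, 11.89 and 12.20 in resistant rats and 12.04, 12.40 and 12.96 in sensitive rats, a difference of -0.61. Gabrb1 differed by -0.37 and Gabra5 by -0.24. Their ranges overlapped by little, and under the marker covariate the 3 differences were -0.32, -0.21 and -0.13, with 1 of the 12 genes lower.

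Monoamine and acetylcholine receptors gave a mixed picture. Of 14 serotonin receptors, 10 had negative differences, and the list median was -0.11. At p under 0.05 before adjustment 1 was higher and 2 were lower, beside 2.63% and 3.77% of all genes. With the covariate 1 was higher and 4 were lower. The higher one was Htr1b, an inhibitory receptor found on axon terminals of medium spiny neurons, with 8.87, 8.95 and 9.49 in resistant rats and 8.19, 8.33 and 8.91 in sensitive rats and a difference of 0.63 ± 0.18 (SE). Chrna4 and Chrnb2, which together form the common high-affinity nicotinic receptor of brain, differed by -0.46 and -0.21. They were the 2 lower genes at p under 0.05 before adjustment among 14 nicotinic and muscarinic receptors, beside 3.77% of all genes. The median of that list was -0.03. Of 11 genes of dopamine receptors and dopamine handling, 0 were past the unadjusted threshold, with a median of -0.02.

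Among other signalling lists, 18 accumbens neuropeptides other than opioids had a median of 0.04. At p under 0.05 before adjustment 2 were higher and 0 lower, beside 2.63% and 3.77% of all genes. The 13 striatal interneuron markers had a median of -0.04, or 0.007 without shock-sensitive replicate 4, with Calb2 as the single lower gene. For 17 neurotrophic factors and receptors the median was -0.003, with Gfra2 as the single lower gene. With the covariate 0 genes of either list were lower at that threshold, and 0 were without shock-sensitive replicate 4.

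Each of the 3 lists of glutamate receptor genes had 1 member past the unadjusted threshold, beside 6.4% of all genes. Grin2c, an NMDA receptor subunit, had medians of 8.80 in resistant and 8.54 in sensitive rats, a difference of 0.31, and was 1 of 7 such subunits. Grik1, a kainate receptor subunit, differed by -0.55, with medians of 7.39 in resistant and 7.82 in sensitive rats, and was 1 of 8 AMPA and kainate subunits. Grm2, a metabotropic receptor whose level was below the negative control median, differed by -0.27. The list medians were 0.12 for NMDA subunits, 0.00 for AMPA and kainate subunits and 0.05 for metabotropic receptors. With the covariate 0 NMDA subunits and 0 metabotropic receptors passed the unadjusted threshold, while 2 AMPA and kainate subunits were lower. Without shock-sensitive replicate 4, 1 NMDA subunit was higher, and 0 genes of the other lists passed.

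Voltage-gated channels were taken in 2 lists. Of 19 sodium and calcium channel genes, 14 had positive differences with a median of 0.18, or 0.11 without shock-sensitive replicate 4, and 4 were higher and 0 lower at p under 0.05 before adjustment, beside 2.63% and 3.77% of all genes. Cacna1i, a T-type calcium channel, had 9.76, 10.07 and 10.48 in resistant rats and 9.23, 9.49 and 9.78 in sensitive rats. Only the lowest resistant rat reached the sensitive range, and the difference was 0.60 ± 0.16 (SE), 0.36 under the covariate. Cacna1a, the P/Q-type channel of nerve terminals, differed by 0.33, Cacnb1, an auxiliary subunit, by 0.41 and Scn3a, a sodium channel, by 0.22. Of 18 potassium channel genes, 10 had positive and 8 negative differences, with a median of 0.10 that was 0.004 without shock-sensitive replicate 4. Among them Kcnd2 differed by 0.30 and Kcnd3 by -0.27, 2 subunits of the same A-type current. With the marker covariate the median of the sodium and calcium channels was -0.005 and that of the potassium channels was -0.11.

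Synaptic genes were taken in 2 lists. Of 18 adhesion and postsynaptic scaffold genes, 14 had positive differences, and the median was 0.09. At p under 0.05 before adjustment 5 were higher and 0 lower, beside 2.63% and 3.77% of all genes. Without shock-sensitive replicate 4 the median was 0.06 and 2 were higher. With the covariate the median was -0.02 and 2 were higher. Homer1, a scaffold that ties metabotropic receptors to the postsynaptic density, had 12.47, 12.77 and 12.97 in resistant rats and 11.24, 12.10 and 12.65 in sensitive rats. Shank3, another scaffold, differed by 0.46, Cdh8, a cadherin, by 0.35 and Nrxn3, a presynaptic neurexin, by 0.19. Of 19 genes of vesicles and release, 13 had negative differences with a median of -0.10. Unc13a, which primes vesicles, was higher at 0.33, and Syt1, the calcium sensor of release, was lower at -0.18, with 16.58, 16.72 and 16.92 in resistant rats and 16.85, 16.89 and 17.02 in sensitive rats. Of 9 endocannabinoid genes 2 were lower at p under 0.05 before adjustment, beside 3.77% of all genes. These were Napepld, which makes anandamide, at -0.18 and Faah, which breaks it down, at -0.23.

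Of 18 immediate early transcription factors, which neuronal activity switches on within minutes, 14 had positive differences and 11 were at or above the negative control median. The median difference was 0.16, or 0.10 without shock-sensitive replicate 4, and 2 were higher and 0 lower at p under 0.05 before adjustment, beside 2.63% and 3.77% of all genes. Their mean level was 6.88 in resistant rats, 6.75 in sensitive rats and 7.0 in controls. Nr4a3 had 6.89, 7.81 and 8.23 in resistant rats and 6.60, 7.08 and 7.53 in sensitive rats, with a difference of 0.68 ± 0.24 (SE) that was 0.75 under the marker covariate. The ranges overlapped, and the control mean of 7.67 was close to the resistant mean. Fosl2 differed by 0.26, at a level below the negative control median. Of 20 activity-regulated effectors, 16 had positive differences with a median of 0.13, and 3 were higher and 1 lower; with the covariate the median was 0.04, 1 was higher and 0 were lower. Rgs2, which shortens G protein signals, differed by 0.56 and Dusp14, a phosphatase of the ERK pathway, by 0.26, while Nrn1, a neurite growth factor that is also a cortical marker here, differed by -0.56.

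Of 13 chaperone genes 3 were higher and 0 lower at p under 0.05 before adjustment, beside 2.63% and 3.77% of all genes; the median was 0.05, and with the covariate 4 were higher. Dnajb5, a co-chaperone, had 9.11, 9.43 and 9.62 in resistant rats and 8.69, 8.90 and 9.11 in sensitive rats. The lowest resistant rat met the highest sensitive rat, and the difference was 0.52 ± 0.14 (SE), 0.41 under the covariate. Hsph1, a partner of HSP70, differed by 0.33. Among 13 genes of corticotropin-releasing hormone and glucocorticoid signalling, Hsd11b1, the enzyme that regenerates active glucocorticoid in tissue, was higher at 0.22, with medians of 9.24 in resistant and 9.03 in sensitive rats. Zbtb16, a gene induced by glucocorticoids, was lower at -0.17, and the list median was 0.02.

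Most astrocyte markers had lower means in resistant rats. Of 14 astrocyte markers, 13 had negative differences, beside 58.5% of the genes at or above the negative control median. The list median was -0.15, and 5 were lower and 0 higher at an unadjusted p under 0.05, beside 3.77% and 2.63% of all genes. Sox9, a transcription factor of astrocytes, had 10.77, 11.03 and 11.26 in resistant rats and 11.04, 11.24 and 11.52 in sensitive rats, a difference of -0.26. Gja1, which encodes the main gap junction protein of astrocytes, differed by -0.17, with 10.88, 11.02 and 11.12 in resistant rats and 11.13, 11.17 and 11.26 in sensitive rats, and the 2 groups did not overlap. Slc4a4, a bicarbonate transporter, differed by -0.17 and Gpc5, a glypican, by -0.20. With the marker covariate the astrocyte median was -0.10 and 2 of the 14 were lower, and without shock-sensitive replicate 4 it was -0.09 and 4 were lower.

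The oligodendrocyte lineage stood the same way in sign. All 10 precursor markers had negative differences, with a median of -0.12, beside 58.5% negative among the genes at or above the negative control median. At p under 0.05 before adjustment 2 were lower, beside 3.77% of all genes: Lhfpl3 and Gpr17, a receptor of differentiating precursors, at -0.28. With the marker covariate the precursor median was -0.01 and 1 was lower, and without shock-resistant replicate 1 the median was -0.07. Of 13 markers of mature oligodendrocytes 11 had negative differences with a median of -0.15, but 0 were past the unadjusted threshold, and that median was 0.003 with the covariate and -0.06 without shock-sensitive replicate 5. Among 14 microglial markers 9 had negative and 5 positive differences, the median was -0.05, and 8 were at or above the negative control median. P2ry12, the purinergic receptor of resting microglia, differed by -0.43 and Itgam, an integrin of microglia, by -0.37. At p under 0.05 before adjustment 2 of the 14 were lower and 0 higher, beside 3.77% and 2.63% of all genes. With the covariate 0 were lower, and 0 were without the 3 arrays that stood apart. Blood cell markers had a median of -0.35 over 9 genes, with Alas2, the haem enzyme of red cell precursors, at -0.40, and the highest array mean of that list was 8.54 in shock-sensitive replicate 5, without which the median was -0.18.

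Markers of neighbouring tissue were measured beside these. Cortical neuron markers, 17 in all, had a median of -0.14, with 12 negative and 5 positive differences. These stand beside 58.5% and 41.5% of the genes at or above the negative control median. At p under 0.05 before adjustment 2 cortical markers were higher and 3 lower, beside 2.63% and 3.77% of all genes. With the covariate 1 was higher and 0 were lower. Tbr1, a transcription factor of deep cortical layers, was at -0.56 and Ccn2, a matricellular protein, at 0.27. Of 10 markers of olfactory bulb and migrating neuroblasts, 9 had negative differences, with a median of -0.20; Dlx2 and Sox4, transcription factors of immature neurons, were at -0.44 and -0.19. The choroid plexus list had a median of 0.10, which was -0.16 without shock-resistant replicate 4, and 2 of its 13 genes were at or above the negative control median. Hypothalamic and septal markers had a median of -0.05 over 18 genes, endothelial and mural markers 0.04 over 14 and meningeal fibroblast markers 0.08 over 9. Of the 18 hypothalamic and septal markers 7 were at or above the negative control median, and the median of that list was 0.12 with the covariate. Whether these marker differences reflect tissue content was not tested, nor was their share in the gene differences above, beyond the marker covariate.

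Housekeeping and chromatin lists were measured too. Of 17 cytosolic ribosomal protein genes 16 had positive differences, beside 41.5% of the genes at or above the negative control median. The list median was 0.10, or 0.005 without shock-sensitive replicate 3, and Rplp1, a protein of the ribosomal stalk, was at 0.20. Respiratory chain genes had a median of 0.04 over 19 genes with 0 past the unadjusted threshold, which 6.4% of all genes passed in either direction. Among 13 histone deacetylases Hdac1 was the single one below it, at -0.24, with 10.01, 10.32 and 10.42 in resistant rats and 10.35, 10.44 and 10.75 in sensitive rats. Of 11 genes of DNA methylation and demethylation 0 were past it, and of 20 genes of peroxiredoxin, thioredoxin and glutathione defence 1 was, Txnrd1, a thioredoxin reductase, at -0.11. The single genes of the deacetylase and the peroxiredoxin lists stand beside 6.4% of all genes, and with the covariate 0 genes of either list passed. The 16 interferon response genes had 0 past it and a median of 0.05.

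**Figure D5:**
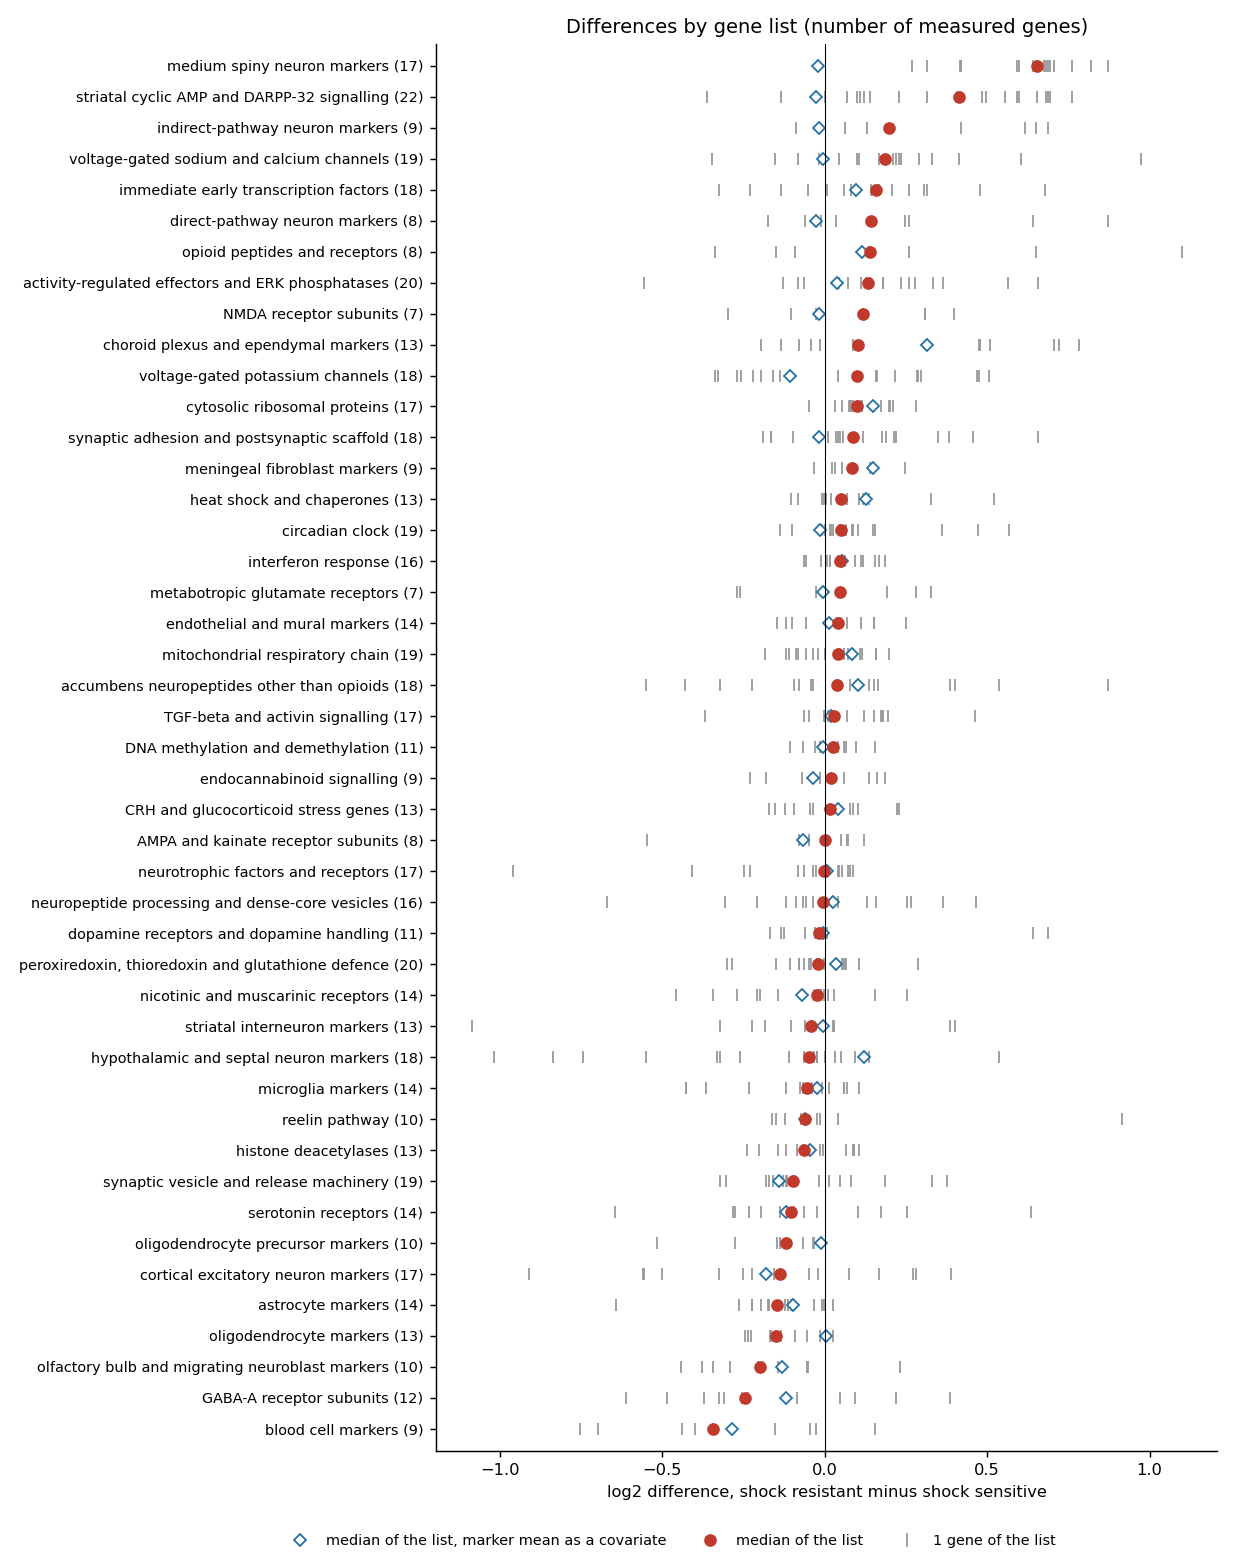
Log2 differences between resistant and sensitive rats (x axis) for the measured genes of 45 lists (rows, with the number of genes); grey ticks are genes, filled circles the list median and open diamonds the median with the mean of the medium spiny neuron markers as a covariate. The list of medium spiny neuron markers lies farthest right at 0.65 and blood cell markers farthest left at -0.35 with all arrays, and the diamond of the spiny neuron list is at -0.02.

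MicroRNA genes were measured through their precursors, of which 382 had a feature on the array. MicroRNAs are short RNAs that pair with messenger RNAs through bases 2 to 8, the seed, and repress them. Of the 382, 106 were at or above the negative control median, 6 were higher and 18 lower at p under 0.05 before adjustment, beside 2.63% and 3.77% of all genes, and 0 passed the adjusted threshold. The Mir29 family is described in full and was chosen after its values were seen. Its mature sequences, from RefSeq on GRCr8, are shown because the members have the same seed, in capitals, and differ only after it.
rno-miR-29a-3p: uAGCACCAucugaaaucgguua
rno-miR-29b-3p: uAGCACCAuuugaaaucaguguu
rno-miR-29c-3p: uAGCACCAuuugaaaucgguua
The genes lie in 2 clusters: miR-29a is at chr4:60617968-60617989 beside the first copy of miR-29b at chr4:60618342-60618364, both on the minus strand, and the second copy of miR-29b at chr13:109098882-109098904 lies beside miR-29c at chr13:109099412-109099433, both on the plus strand.

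Mir29a had 5.21, 5.35 and 5.99 in resistant rats and 5.80, 6.18 and 7.20 in sensitive rats, a difference of -0.90 ± 0.21 (SE) with an adjusted p of 0.664. Of the 6 resistant rats 5 lay below every sensitive rat, and the control mean of 5.51 was close to the resistant mean of 5.47, but the gene's mean lay below the negative control median. Mir29b2 had 8.07, 8.35 and 8.69 in resistant rats and 8.63, 8.67 and 8.88 in sensitive rats, a difference of -0.37 ± 0.09 (SE), and a control mean of 8.30. Mir29b1, also below the negative control median, differed by 0.15, and Mir29c by -0.15. Under the marker covariate Mir29a and Mir29b2 were at -0.85 and -0.36. No test compared the members of the family. Arrays of this kind detect the precursor transcript, and the mature microRNAs printed above were not measured.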

How the data were processed

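Nucleus accumbens RNA of 18 rats, 6 per group, was measured on Affymetrix whole-transcript arrays. The deposited values were taken as log2 from their range. Per the submitters' processing notes the authors used Affymetrix Expression Console; the sources used here do not state summarisation, normalization, build or filters. Of 70580 features, 23446 carried 1 gene symbol (505 several, 44891 none, 1738 control features); symbols were updated through RefSeq gene numbers (22077 matched). The feature with the highest mean was kept for the 1182 genes with several, leaving 22093 genes and no filter on low values. One limma fit (3.58.1, R 4.3.3) of all 18 arrays, with group as the only term, gave the contrast, with Benjamini-Hochberg adjustment over all genes; it was tested on simulated data. Precision is limited by 6 arrays per group.

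The comparison, the 45 gene lists (592 of 625 genes measured) and the tests were chosen with earlier results of these data known. Named were the opioid list, the 15 higher and 15 lower genes with the smallest p among those at least 1.2-fold different, at or above the negative control median and with an established symbol, the 5 widest gaps on each side, the 10 largest differences, and 2 to 4 members of each list. The Mir29 genes, the grouping of Pmepa1, Skil and Ldlrad4, and the fit without 3 arrays were chosen after seeing the data. Lists are described by counts and medians, with no list test. Figures were made with matplotlib 3.10.9 in Python 3.11.15. Promoters and microRNAs came from RefSeq tables on GRCr8; the searched motifs were TGACGTCA and AGGTCA.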

Additional observations from a re-analysis of the deposited data

Results flagged for a closer look

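Of 132 groups of 6 values looked at, 8 held an array whose gap to the nearest other array was too large a share of the group's range by Dixon's test at 95%; chance gives about 1 in 20. In shock-resistant rats, replicate 4 had a choroid plexus and ependymal marker mean of 8.15 (others 5.33 to 5.49) and a meningeal fibroblast marker mean of 7.35 (others 6.86 to 6.93). The same array had the lowest resistant Acot3 value, 8.16 (others 8.33 to 8.34), and resistant replicate 6 had the lowest Slc25a2 value, 6.70 (others 6.91 to 7.03). In shock-sensitive rats, replicate 4 had a hypothalamic and septal marker mean of 7.93 (others 6.76 to 7.13), an Acot3 value of 8.76 (others 8.39 to 8.51) and an Ldlrad4 value of 7.89 (others 8.18 to 8.35). Shock-sensitive replicate 5 had a blood cell marker mean of 8.54 (others 7.58 to 7.93). Of the 8 values, 6 were on replicate 4 of either group.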

How the results depend on the processing

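The count of genes past an adjusted limma p of 0.05 was 0, and it was 1 with each array centred on its median, where Fst had an adjusted p of 0.0344. Leaving out each array in turn gave 0 to 1 calls: Fst at 0.0154 without shock-resistant replicate 4, and Ist1 at 0.0365 without control replicate 3. Other settings weakened Fst: its adjusted limma p was 0.371 without shock-resistant replicate 2 and 0.634 with the marker covariate. In a fit of the 2 groups alone 0 genes passed, and the smallest adjusted limma p was 0.151, for Insyn1 in place of Fst. The 117 higher genes at an unadjusted p under 0.05 and 1.3-fold became 24 with the marker covariate, 74 without the 3 arrays that stood apart, 226 at 1.2-fold and 38 at 1.5-fold. With each array left out they ranged from 46 without shock-sensitive replicate 4 to 218 without shock-sensitive replicate 1, with 73 without shock-resistant replicate 1 and 194 without shock-sensitive replicate 2. The 131 lower genes became 31 with the covariate, 286 at 1.2-fold and 34 at 1.5-fold. With each array left out they ranged from 55 without shock-sensitive replicate 4 to 259 without shock-sensitive replicate 1, with 78, 203 and 82 without shock-resistant replicates 1, 4 and 6. The cause of these shifts was not tested. The split at an unadjusted p under 0.05 was 582 higher to 833 lower as deposited, 538 to 872 after quantile normalization and 410 to 897 after median centring.

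Of 3493 values of named genes under the alternatives, 3480 kept their direction and side of the adjusted threshold, which no named gene had passed as reported. Differences turned sign with the covariate in Pnoc (0.161), Oprd1 (-0.196), Oprl1 (0.075), Scn4b (-0.005), Drd1 (-0.02), Drd2 (-0.033), Adora2a (-0.019) and Mir29b1 (-0.067). Drd1, Drd2 and Adora2a are part of the covariate, which sets them near 0. With each array left out Mir29b1 ranged from -0.046 to 0.267 and Mir29c from -0.249 to 0.014, both turning sign without shock-resistant replicate 1. Of the 45 list medians 39 moved by over 1.5 times or changed sign without some 1 array, 24 of them medians under 0.1 in size. The groups share replicate numbers, and deviations of same-numbered arrays correlated at -0.147 to 0.295. The numbers were not taken as pairs in the main fit, and whether same-numbered arrays shared a batch was not tested. With a replicate block 0 genes passed the adjusted threshold, and 99 higher and 128 lower genes passed the unadjusted one with 1.3-fold; 3 of 6 resistant arrays correlated best with the same-numbered sensitive array. Signals near the negative control median, such as those of Fst and Mir29a, are the least certain.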
